A study of Mus musculus with 16 samples.

Results

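The comparison concerned the brains of newborn mice whose fathers' sperm had been freeze-dried and then irradiated, set against the brains of mice derived from fresh sperm. Total RNA from 8 brains of C57BL/6 neonates at postnatal day 1 was hybridised to 8 one-colour Agilent arrays, 1 brain per array, out of 16 arrays in the whole series. The irradiated group held 4 animals from sperm that was freeze-dried and given 5 Gy of X-rays, and the fresh group held 4 animals from sperm that was neither dried nor irradiated. Members were chosen by their titles, and no measured value entered the choice. The other 8 arrays, 4 from freeze-dried sperm without further treatment and 4 from dried sperm kept for 1 h at 95 °C, entered the model to estimate the spread between animals. The irradiated group therefore differed from the fresh group by drying and by irradiation at once, and this contrast alone cannot tell them apart. Both treatments were applied to the sperm, per the labels.

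Freeze-dried sperm cannot swim, and offspring are obtained by injecting the sperm nucleus into an egg. X-rays break DNA, and breaks carried in by sperm are repaired in the egg and early embryo before any brain exists. In an irradiated cell, double-strand breaks activate p53, which raises targets such as Cdkn1a, a cell cycle inhibitor, and Mdm2, the ubiquitin ligase that limits p53. The brain on the first postnatal day holds dividing progenitors beside young neurons, early glia, ependyma and the choroid plexus, which makes cerebrospinal fluid. Its immediate early genes respond within minutes to neuronal activity, handling or stress, and glucocorticoid target genes respond to stress hormones.

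The labels gave no litters and no sex, and p-values are too small if animals of a group were littermates. Slide 1 carried fresh 1 and 2 and irradiated 1 and 2, and slide 2 carried fresh 3 and 4 and irradiated 3 and 4, so the slide was balanced over both groups. On these 8 arrays between 61.1% and 65.7% of spots were well above background, no spot was saturated, and the extraction software marked 1 array, fresh 3, for evaluation. The neuronal genes of the labelled tissue were high in all 8 animals, for example Snap25, a synaptic vesicle fusion protein, at 3.42 to 3.88 (log2 signal minus the array's 75th percentile, the scale of every level below). Several brains stood apart by marker genes. Skeletal muscle genes averaged 0.82 in fresh 1 and -2.22 to -1.96 in the other 7. The 13 measured Hox genes, which mark the hindbrain and spinal cord, averaged -6.71 in fresh 2, -2.88 in irradiated 1 and -1.67 to -1.17 in the other 6. Gh, the growth hormone of the pituitary, was 2.87 in fresh 3 and -7.73 to -5.60 in the others, and Omp, of olfactory neurons, was -0.56 in irradiated 3 against -3.70 to -2.43. Y-linked genes were high in fresh 2 and 4 and in irradiated 1, 2 and 3. Xist, the RNA of the silenced X chromosome, was at -0.88, -0.48 and -0.59 in fresh 1, fresh 3 and irradiated 4 and at -7.84 to -5.99 in the other 5. The part of these differences in the results below was not tested beyond the fits given with them. In whole brains, fewer cells of a type and less RNA per cell cannot be told apart.

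Of 26477 genes and unnamed array features tested, 364 (1.37%) differed between irradiated and fresh animals at an adjusted p under 0.05. There were 229 higher (0.865%) and 135 lower (0.51%) in the irradiated animals, and 194 of the 364 had a RefSeq gene symbol, 103 higher and 91 lower. Most differences were small. The median called size was 0.467 on the log2 scale, 237 of the 364 were under 1.5-fold, and 52 reached 2-fold, of which 4 had a symbol: Egr1, Ccl7, Wfikkn1 and Utp14b. The values of the 2 groups did not overlap for 360 of the 364, against 9.09% of everything tested (5.54% with the irradiated values above, 3.55% with them below). The split of higher against lower calls depended on scaling: it was 195 against 180 with quantile normalization, 110 against 98 with normexp background correction and 444 against 495 in the authors' deposited value table, whose making is not stated. The median difference over all tested was 0.032.

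The number of calls depended strongly on single animals. Without fresh 1, 2, 3 or 4 in turn it was 139, 111, 185 and 539, and without irradiated 1, 2, 3 or 4 it was 88, 61, 54 and 186. With the 8 arrays of both groups alone it was 69, with slide as a block 651 (2.46%), and with Y-linked signal as a covariate 152. After the data were seen, every array of low Hox signal was left out of the model (fresh 2, freeze-dried 2, heated 2 and heated 4), which left 0 calls (3626 at an unadjusted p under 0.05, smallest adjusted p 0.0519). Leaving out fresh 1 as well, for its muscle signal, gave 2 calls, neither of them among the 364. All 364 kept their sign in both of these fits, which groups that do not overlap largely fix.

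**Figure D1:**
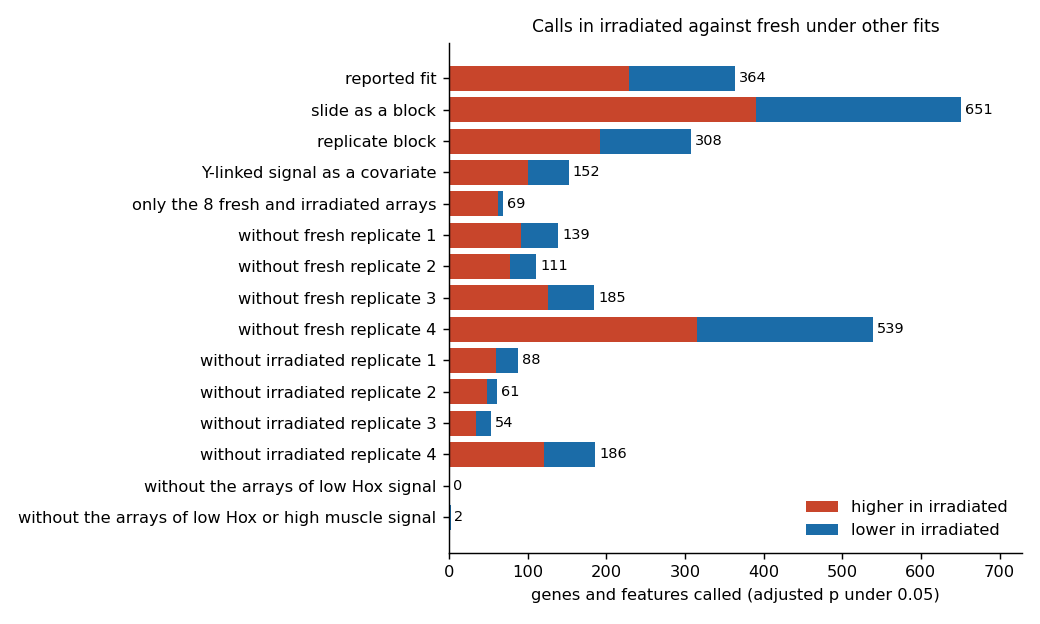
Horizontal bars give the number of genes and features called in irradiated against fresh animals at an adjusted p under 0.05, split into higher and lower, for the reported model and 14 others. The count was 364 as reported, 651 with slide as a block, 54 to 539 with 1 array left out, and 0 or 2 without the arrays that marker genes set apart.

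A set of 43 genes and features was called without each of the 8 arrays in turn, of which 18 had a symbol, 9 higher and 9 lower. The 18 include Csrnp1, a nuclear protein of the immediate early class, Txnip and Arrdc3, related arrestin-like proteins, Id1, an inhibitor of bHLH transcription factors, and Nup98, a nuclear pore protein. Of the 53 called genes named with their values here, 8 belong to this set: Csrnp1, Txnip, Arrdc3, C2cd4b, Utp14b, Zfp787, Kbtbd8 and Mob3c. The other 45 lost their call without at least 1 array. The numbers lost were 34, 37, 25 and 4 without fresh 1, 2, 3 and 4, and 40, 42, 44 and 27 without irradiated 1, 2, 3 and 4, and the adjusted p of a lost call lay between 0.0505 and 0.139. None of the 53 changed sign under any alternative, which groups that do not overlap largely fix where the same values were fitted. Without the arrays of low Hox signal their adjusted p ran from 0.0519 to 0.19.

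**Figure D2:**
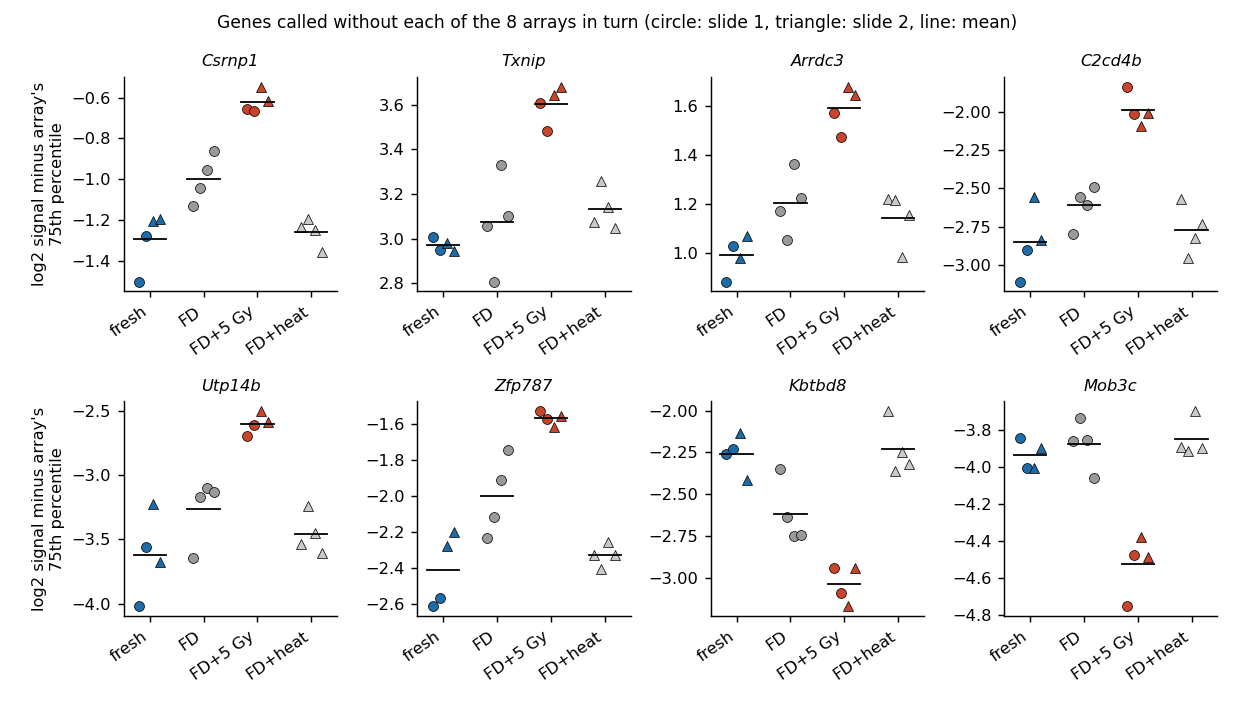
Each panel plots 1 gene's log2 signal minus the array's 75th percentile in each of 16 animals by group (FD, freeze-dried; circles, slide 1; triangles, slide 2; lines, group means). In all 8 genes the 4 irradiated values lie apart from the 4 fresh values, above them in 6 genes and below them in Kbtbd8 and Mob3c.

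Immediate early genes are switched on through transcription factors that wait on their promoters, and the cAMP response element, bound by CREB, is one such site. The promoter stretches of 3 called genes of this class are shown because they hold the core of that element, TGACG, searched on both strands. The core was found in the 250 bases before the start of all 4 called immediate early genes with a RefSeq promoter window (Csrnp1, Nr4a1, Atf3 and Klf4), in 16 of 26 windows of the whole immediate early list (61.5%), and in 25.2% of the windows of all genes tested. Among genes called higher it was in 20 of 77 windows (26%). The full cAMP response element was in 0 of the 4 windows of called immediate early genes, in 2 of 26 of the list (7.69%) and in 2.67% of all. The 160 bases before each start are given 5′ to 3′ on the gene's strand, from RefSeq on GRCm38.p6, with this core, or its reverse complement, in capitals.
Csrnp1 (chr9:119984743-119984902, minus strand): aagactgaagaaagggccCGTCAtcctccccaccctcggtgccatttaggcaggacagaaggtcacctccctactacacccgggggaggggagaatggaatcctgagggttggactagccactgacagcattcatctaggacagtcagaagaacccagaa
Nr4a1 (chr15:101266686-101266845, plus strand): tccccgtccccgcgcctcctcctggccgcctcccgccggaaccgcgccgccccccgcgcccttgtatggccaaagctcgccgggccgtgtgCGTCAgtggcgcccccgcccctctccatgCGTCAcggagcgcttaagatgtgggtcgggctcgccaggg
Atf3 (chr1:191183334-191183493, minus strand): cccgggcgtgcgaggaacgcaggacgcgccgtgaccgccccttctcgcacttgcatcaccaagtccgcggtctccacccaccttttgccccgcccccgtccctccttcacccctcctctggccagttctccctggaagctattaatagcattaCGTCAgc

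Immediate early genes were among the genes that rose. Of 30 measured, 6 were called higher and 0 lower, against 0.865% and 0.51% of everything tested. The lists, here and below, were written with earlier results of these data known, so such shares are a description. There were 26 above the fresh mean, as were 15592 of all 26477, and the median difference was 0.338 on the log2 scale against 0.0324 over all genes and features. For 15 of the 30 all irradiated values lay above all fresh values, against 5.54% of everything tested.

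Egr1, a zinc finger transcription factor, had levels of -0.17, -0.55, 0.29 and 0.89 in fresh 1 to 4 and of 1.47, 1.41, 1.56 and 1.55 in irradiated 1 to 4. The fresh animals were widely spread and the irradiated ones close together, with no overlap. Egr1 was 2.61-fold higher (log2 difference 1.38, SE 0.24, adjusted p = 0.0162), by 1.80 on slide 1 and 0.96 on slide 2. The call was lost without irradiated 2 (adjusted p = 0.0517) or irradiated 3 (adjusted p = 0.0549).

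Csrnp1 had the smallest adjusted p among genes with a symbol, shared with several features that have none. Its levels were -1.5, -1.28, -1.20 and -1.19 in the fresh animals and -0.66, -0.67, -0.55 and -0.62 in the irradiated animals, a 1.59-fold difference (log2 0.67, SE 0.08, adjusted p = 0.00253). All 4 irradiated animals lay above all 4 fresh ones by more than the whole spread of the irradiated group.

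Nr4a1, an orphan nuclear receptor, was at 1.47, 1.18, 1.71 and 1.76 in fresh and at 2.08, 2.04, 2.28 and 2.12 in irradiated animals (1.51-fold, adjusted p = 0.0234). Atf3, a transcription factor of both the immediate early and the stress responses, was at -3.38, -3.59, -3.29 and -2.87 against -2.60, -2.43, -2.57 and -2.35 (1.73-fold, adjusted p = 0.0242). Klf4, a Krüppel-like factor, rose 1.47-fold (adjusted p = 0.0351), and Ier2 1.30-fold (adjusted p = 0.0292). In these 4 genes, too, no irradiated value fell within the fresh range. Btg2, an antiproliferative gene that p53 also induces, was at a log2 difference of 0.38 (adjusted p = 0.0514), and Plk2, a polo-like kinase, at 0.57 (adjusted p = 0.0903).

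The fresh animals of slide 1 had the lowest levels of this class. The list averaged -0.27 and -0.37 in fresh 1 and 2, -0.08 and -0.02 in fresh 3 and 4, and 0.16 to 0.22 in the irradiated animals (means relative to the 8 fresh and irradiated arrays). The interferon, plexus and astrocyte list levels below have the same reference. The median difference of the immediate early list was 0.411 on slide 1 and 0.177 on slide 2. The animals from freeze-dried sperm without further treatment, which share the fresh controls with this comparison, lay between. Their Egr1 difference from fresh was 0.81 (adjusted p = 0.353) and their Csrnp1 difference 0.29 (adjusted p = 0.334). All of these freeze-dried animals were on slide 1 and had high Y-linked signal. Fresh and irradiated animals lay on both slides and had high or low Y-linked signal. The part of slide and sex in the freeze-dried values was not tested.

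Glucocorticoid-responsive genes gave 6 calls, all higher, among 23 measured (0.865% of everything tested was called higher). These were Arrdc3 and Txnip, Klf9, a Krüppel-like factor induced by steroid and thyroid hormone, Nr3c1, the glucocorticoid receptor itself, Sgk1, a kinase of salt and stress responses, and Nfkbia, the inhibitor of NF-κB. The list's median difference was 0.173, and 18 of 23 members lay above the fresh mean. This list, too, was written with earlier results of these data known.

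Txnip, which binds thioredoxin and restrains glucose uptake, was at 3.01, 2.95, 2.98 and 2.95 in fresh animals and at 3.61, 3.48, 3.64 and 3.68 in irradiated animals. The fresh group was tight, and the lowest irradiated value was well above the highest fresh value. The difference was 1.55-fold (log2 0.63, SE 0.09, adjusted p = 0.00622) and of like size on slide 1 (0.57) and slide 2 (0.70). Its difference between freeze-dried and fresh animals was 0.10 (adjusted p = 0.721). That between irradiated and freeze-dried animals, which shares the irradiated arrays, was 0.53 (adjusted p = 0.223). Both carry the limits of slide and Y-linked signal given above for the freeze-dried animals.

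Arrdc3, which directs receptors to breakdown, was at 0.88, 1.02, 0.98 and 1.07 in fresh and at 1.57, 1.47, 1.68 and 1.64 in irradiated animals (1.52-fold, log2 0.60, SE 0.08, adjusted p = 0.00433). The slides gave 0.57 and 0.64. Klf9 rose 1.48-fold (adjusted p = 0.0264), Sgk1 1.34-fold (adjusted p = 0.0379), Nfkbia 1.23-fold (adjusted p = 0.0468) and Nr3c1 1.19-fold (adjusted p = 0.0375). Nfkbia lost its call without any 1 of the 8 arrays (adjusted p up to 0.115).

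All 36 measured genes of the interferon response list lay above the fresh mean, with a median log2 difference of 0.512. The test called 3 of the 36 higher, Ifi35, Gbp3 and Gbp2, against 0.865% of everything tested. For 10 of the 36 all irradiated values lay above all fresh values, against 5.54%. Interferons act through ISGF3, which binds the interferon-stimulated response element, and 14 of 26 promoter windows of this list (53.8%) held its core on either strand (GAAA, any 2 bases, GAAA), against 2.57% of the windows of all genes tested and 7 of 77 (9.09%) of those called higher. Of the 3 called genes, Gbp3 and Gbp2 had a match and Ifi35 had none in its window. The windows of Gbp3, Gbp2 and Isg15, a member that was not called, are shown for this core, as 160 bases before the start, 5′ to 3′ on the gene's strand, from RefSeq on GRCm38.p6 with matches in capitals.
Gbp3 (chr3:142559884-142560043, plus strand): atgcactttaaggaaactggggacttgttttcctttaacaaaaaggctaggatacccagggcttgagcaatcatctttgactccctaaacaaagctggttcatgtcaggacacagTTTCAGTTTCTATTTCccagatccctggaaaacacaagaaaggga
Gbp2 (chr3:142620503-142620662, plus strand): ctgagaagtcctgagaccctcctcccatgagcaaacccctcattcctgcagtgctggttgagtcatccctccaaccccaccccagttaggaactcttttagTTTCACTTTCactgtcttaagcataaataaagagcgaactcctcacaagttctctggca
Isg15 (chr4:156200819-156200978, minus strand): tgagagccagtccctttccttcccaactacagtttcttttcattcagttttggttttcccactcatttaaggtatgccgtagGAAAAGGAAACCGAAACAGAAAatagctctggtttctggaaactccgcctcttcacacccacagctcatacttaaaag

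Gbp3 and Gbp2 are interferon-induced GTPases of a family of close copies, and whether their probes separate the copies was not tested. Gbp3 was at -1.31, -1.56, -1.58 and -1.11 in fresh and at -0.81, -0.45, -0.80 and -0.90 in irradiated animals (1.57-fold, adjusted p = 0.0324). Gbp2 was at -2.53, -2.70, -2.50 and -2.50 against -1.73, -1.77, -2.17 and -2.31 (1.48-fold, adjusted p = 0.04). The irradiated animals of slide 1 were the higher ones for Gbp2.

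Isg15, a ubiquitin-like modifier, was at 0.64, -0.01, 0.40 and 0.83 in fresh and at 1.46, 2.15, 1.19 and 0.83 in irradiated animals. Irradiated 4 lay within the fresh range, and the log2 difference of 0.94 (SE 0.26) did not pass (adjusted p = 0.0917). Ifi35 rose 1.38-fold (adjusted p = 0.0234), and Ddx58, the RNA sensor RIG-I, stood at 0.46 (adjusted p = 0.0506).

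The interferon list was uneven between animals. Its level was 0.38 and 0.72 in irradiated 1 and 2, 0.13 in irradiated 3 and -0.12 in irradiated 4, against -0.15, -0.51, -0.39 and -0.06 in fresh 1 to 4. The median difference was 0.791 on slide 1 and 0.202 on slide 2. In the related antigen presentation list all 15 measured genes lay above the fresh mean (median 0.221), and 1 was called, Tap1, a peptide transporter of the class I pathway (1.27-fold, adjusted p = 0.0359). With the mean of its kept probes the adjusted p of Tap1 was 0.432. Tap2 stood at 0.34 (adjusted p = 0.0881) and Psmb8, an immunoproteasome subunit, at 0.63 (adjusted p = 0.107).

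**Figure D3:**
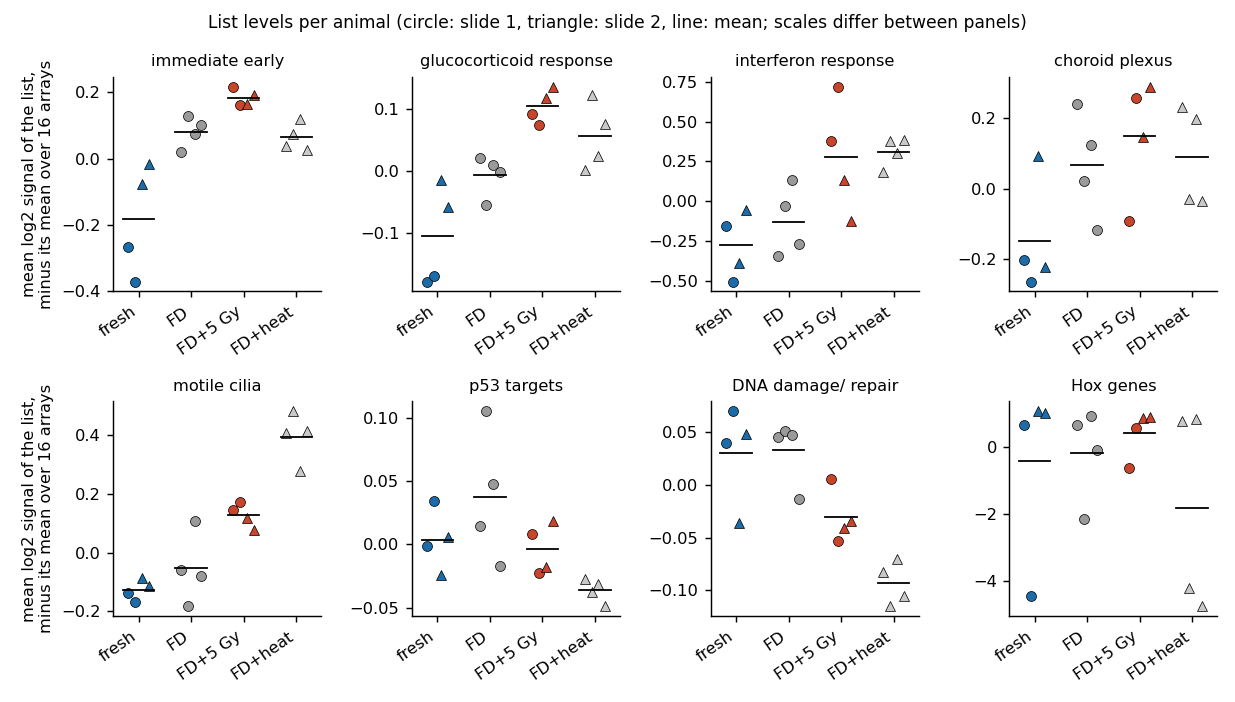
Each panel plots the mean log2 signal of 1 gene list per animal, relative to its mean over the 8 fresh and irradiated arrays (FD, freeze-dried; circles, slide 1; triangles, slide 2; lines, group means), with its own scale. The axis label names 16 arrays, but the reference is these 8. Irradiated animals sit above fresh animals in the immediate early, glucocorticoid and motile cilia lists, spread from -0.12 to 0.72 in the interferon list, and overlap fresh animals in the p53 and Hox lists.

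Of 33 measured p53 targets, 0 were called higher and 1 lower, where 0.865% of everything tested was called higher and 0.51% lower. A count of 0 or 1 call in a list of this size is no result about that list, here and below. There were 16 above and 17 below the fresh mean, and the median difference was -0.0034. All irradiated values lay above all fresh values for 3 of the 33 and below them for 2, against 5.54% and 3.55% of everything tested. The 3 above include Btg2 (0.38, adjusted p = 0.0514) and Plk2 (0.57, adjusted p = 0.0903), which are on this list too. Cdkn1a was at 1.37, 1.35, 1.14 and 1.24 in fresh and at 1.38, 1.45, 1.22 and 1.29 in irradiated animals, which overlap (log2 difference 0.06, SE 0.08, adjusted p = 0.747). The sign of Cdkn1a turned with normexp correction (-0.06). Mdm2 was at -0.11 (SE 0.08, adjusted p = 0.499), and its other probe was at 0.18. The called member was Trp53inp1, a p53-induced regulator of autophagy, which fell to 0.779 of its fresh level (log2 difference -0.36, adjusted p = 0.0297). Its other kept probe was at -0.03, and with the mean of both probes the call was lost (log2 difference -0.19, adjusted p = 0.306).

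Of 46 measured genes of DNA damage sensing and repair 1 was called, lower, against 0.51% of everything tested. It was Lig4, the ligase of non-homologous end joining. Lig4 was at 1.30, 1.49, 1.26 and 1.27 in fresh and at 1.05, 1.00, 1.02 and 1.03 in irradiated animals (log2 difference -0.30, SE 0.06, adjusted p = 0.0369; 0.113 with the mean of its kept probes). Exo1, a resection nuclease, stood at -0.49 (adjusted p = 0.0714) and Rad54l, of homologous recombination, at -0.30 (adjusted p = 0.0796). The list's median was -0.0167. Of 31 DNA replication genes 1 was called lower, Orc1, of the origin recognition complex (log2 difference -0.55, adjusted p = 0.0264), while Mcm2, of the replicative helicase, was at -0.27 (adjusted p = 0.145).

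None of 30 mitosis and spindle genes was called, against 1.37% of everything tested (median -0.0502, 24 below the fresh mean), and the list was highest in fresh 2, the brain that lacked Hox signal. Mki67, a marker of cycling cells, was at a log2 difference of -0.02 (adjusted p = 0.934), and Aurka, a mitotic kinase, was at -0.24 (adjusted p = 0.202). None of 26 heat shock genes was called (median -0.00282), with Hspa1a, the inducible Hsp70, at 0.14 (adjusted p = 0.453) and its partner Bag3 at 0.32 (adjusted p = 0.166). The integrated stress response list had 2 calls among 23, Atf3 and Ppp1r15a, the phosphatase subunit that restores translation (1.39-fold, adjusted p = 0.0235), with a median of 0.0274.

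Of 26 progenitor and neurogenesis genes 1 was called, Neurog2, which was lower (0.51% of everything tested was called lower). The median of the list was -0.0667. Neurog2, a proneural bHLH factor that commits progenitors to the neuronal fate, had the largest fall of any called gene with a symbol. It was at -0.41, 0.10, -0.86 and -0.90 in fresh and at -1.40, -1.55, -1.64 and -1.30 in irradiated animals, 0.516 of the fresh level (log2 difference -0.96, SE 0.21, adjusted p = 0.0403). Its highest level was in fresh 2, the brain without Hox signal, and without fresh 2 the adjusted p was 0.0848. Its fall was -1.32 on slide 1 and -0.59 on slide 2. Hes1, a Notch target that keeps progenitors from differentiating, was at -0.93 (adjusted p = 0.0964), and Sox11, of young neurons, at -0.32 (adjusted p = 0.119).

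The choroid plexus list lay above the fresh mean in 17 of 17 genes (median 0.325), and 2 were called higher, against 0.865% of everything tested. These were Kcnj13, a potassium channel of its epithelium (1.56-fold, adjusted p = 0.0432), and Slc13a4, a sulphate transporter (1.29-fold, adjusted p = 0.04). Kcnj13 was at -0.62, -0.54, -0.32 and -0.69 in fresh and at -0.17, 0.37, 0.04 and 0.16 in irradiated animals. Folr1, the folate receptor, overlapped between groups (0.55, adjusted p = 0.171). The plexus list level was 0.09 in fresh 3 and -0.09 in irradiated 1, so the groups overlapped.

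Motile cilia genes of the ependyma had 0 calls among 29 (0.865% of everything tested was called higher). Of the 29, 28 lay above the fresh mean (median 0.242), and for 10 all irradiated values lay above all fresh values, against 5.54%. Cfap43 stood at 0.34 (adjusted p = 0.0784), Dynlrb2, a dynein light chain, at 0.34 (adjusted p = 0.0875) and Iqca at 0.35 (adjusted p = 0.0978). All 18 astrocyte genes lay above the fresh mean (median 0.159) with 0 calls. Gfap, the astrocyte filament, was at 0.55 (adjusted p = 0.168) and Clu, a secreted chaperone, at 0.22 (adjusted p = 0.119). Fresh 2 held the lowest astrocyte level, -0.41, against -0.12 to 0.07 in the other 3 fresh animals, and was also the brain without Hox signal.

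The oligodendrocyte list had a median difference of 0.112 over 17 genes, of which 1 was called, higher, against 0.865% of everything tested. Sox10, the lineage's transcription factor, was at 0.28 (adjusted p = 0.128). Microglial genes had 0 calls among 20, against 1.37% of everything tested (median 0.165). Trem2 was at 0.28 (adjusted p = 0.0595), Csf1r at 0.32 (adjusted p = 0.0974) and Tyrobp at 0.31 (adjusted p = 0.0974). The microglial median was 0.275 on slide 1 and 0.0459 on slide 2.

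Among other single calls, Htr1d, a serotonin receptor, rose 1.41-fold (adjusted p = 0.0199), while Htr4 was at -0.32 (adjusted p = 0.162). Nr1d1, the clock repressor Rev-erb alpha, rose 1.5-fold (adjusted p = 0.0325), while Per2 was at -0.33 (adjusted p = 0.0587). Srebf2, the master activator of cholesterol synthesis, fell to 0.816 of the fresh level (log2 difference -0.29, adjusted p = 0.0397). Like Nfkbia, it lost its call whichever of the 8 arrays was left out. Runx2, a factor of bone formation, rose 1.65-fold (adjusted p = 0.0228), Gng13, a G protein subunit, 1.36-fold (adjusted p = 0.0451), and Gpr6, a receptor of striatal neurons, fell to 0.712 (adjusted p = 0.0297). Gng13 also marks olfactory neurons, and its highest level, 0.41, was in irradiated 3, the animal with the high Omp signal. The part of olfactory tissue in that call was not tested.

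Of 27 measured Clk kinases and splicing factors 3 were called, 1 higher and 2 lower, against 1.37% of everything tested. Clk1, a kinase of splicing factors, was at 2.06, 1.58, 1.78 and 1.85 in fresh and at 1.5, 1.24, 1.26 and 1.1 in irradiated animals, a fall to 0.689 (adjusted p = 0.0327; 0.0743 with the mean of its kept probes). Cwc22, a spliceosome factor, fell to 0.773 (adjusted p = 0.0199), and Pnisr rose 1.34-fold (adjusted p = 0.0261).

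Imprinted genes, whose marks are set in the germ line, had 0 calls among 48 (1.37% of everything tested was called), with 24 higher and 24 lower and a median of -0.000388. Igf2, the paternally expressed growth factor, was at a log2 difference of -0.12 (SE 0.06, adjusted p = 0.362) and H19, its maternally expressed neighbour, at -0.01 (SE 0.08, adjusted p = 0.952). The sign of H19 turned under 7 alternatives. The list of DNA methylation and chromatin genes had 0 calls among 31, with 6 higher and 25 lower (median -0.0461). Its member of smallest p, Ezh1, was higher. Dnmt1, the maintenance methyltransferase, was at -0.17 (adjusted p = 0.136) and Tet2, a demethylating enzyme, at -0.34 (adjusted p = 0.146). Ribosomal protein genes had 0 calls among 65, 52 of them below the fresh mean (median -0.0519), for example Rps24 at -0.16 (adjusted p = 0.123).

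The largest increases beside Egr1 were in genes of low signal. Ccl7, a chemokine that attracts monocytes, was at -4.92, -5.12, -4.70 and -3.73 in fresh and at -3.28, -3.01, -3.40 and -3.65 in irradiated animals (2.43-fold, log2 1.28, SE 0.29, adjusted p = 0.0488). It was well above background in 2 of 4 fresh animals, and fresh 4 lay close to the irradiated values. Wfikkn1, a secreted protein with protease inhibitor domains, was at -4.01, -4.33, -3.99 and -3.65 against -2.99, -2.95, -2.54 and -2.99 (2.19-fold, adjusted p = 0.0159). Its call was lost without irradiated 3 (adjusted p = 0.0558).

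Utp14b, a retrotransposed gene of ribosomal RNA processing that male germ cells need, was at -4.02, -3.56, -3.23 and -3.68 in fresh and at -2.69, -2.61, -2.50 and -2.59 in irradiated animals. The groups were far apart (2.03-fold, log2 1.02, SE 0.15, adjusted p = 0.00879). C2cd4b, at -3.11, -2.90, -2.55 and -2.84 against -1.83, -2.01, -2.09 and -2.01, was 1.82-fold higher (adjusted p = 0.00439). Zfp787, a zinc finger gene, was 1.80-fold higher by its brighter probe (adjusted p = 0.00433) and at -0.08 by its other probe, so the 2 probes disagreed.

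Treml2, a receptor of myeloid and lymphoid cells, was 1.73-fold higher (adjusted p = 0.0336) and well above background in 2 of 4 fresh animals. Pnp2, a purine nucleoside phosphorylase with a near-identical neighbour, was 1.73-fold higher (adjusted p = 0.0383), and its probe may not separate the copies. Spaca6, of sperm-egg fusion, was not well above background in any fresh animal and was at least 1.27-fold higher (adjusted p = 0.0453). Gm17660 (1.69-fold, adjusted p = 0.0383) and Vsig2, an immunoglobulin-domain membrane protein (1.68-fold, adjusted p = 0.0297), complete the 12 largest increases together with Atf3.

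The largest decreases beside Neurog2 began with Bhlha15, a bHLH factor of secretory cells, at 0.525 of the fresh level (adjusted p = 0.04) and well above background in 1 of 4 irradiated animals. Kbtbd8, a substrate adaptor of a ubiquitin ligase, was at -2.26, -2.23, -2.13 and -2.41 in fresh and at -2.94, -3.09, -3.17 and -2.94 in irradiated animals (0.585 of fresh, log2 -0.77, SE 0.10, adjusted p = 0.00439), with -0.77 on slide 1 and -0.78 on slide 2. Mob3c, a kinase-activator protein, was at -3.84, -4.01, -4.0 and -3.90 against -4.75, -4.47, -4.38 and -4.48 (0.666 of fresh, adjusted p = 0.00884). For these 2 genes the fresh values were close together and apart from the irradiated ones.

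Trpc7, a cation channel, fell to 0.601 of fresh (adjusted p = 0.0324), Zxdc, a zinc finger gene, to 0.655 (adjusted p = 0.0201), Zfp560 to 0.653 (adjusted p = 0.0275), Tm6sf2 to 0.646 (adjusted p = 0.0324), Hspbap1 to 0.643 (adjusted p = 0.04) and Dnase1l2, a DNase, to 0.675 (adjusted p = 0.043). Cxcr4, the chemokine receptor that guides migrating neurons, fell to 0.672 (log2 difference -0.57, adjusted p = 0.04). Armc7 fell to 0.641 (adjusted p = 0.0357) by its brighter probe, but its other probe was at 0.38, the opposite direction. Of 27 other kept probes of the genes named here, 5 had the opposite sign, those of Armc7, Zfp787, Htr4, Igf2 and Mdm2. With the mean of the kept probes in place of the brighter one, the calls of Armc7 (-0.13, adjusted p = 0.246), Zfp787 (0.38, adjusted p = 0.127), Cxcr4 (adjusted p = 0.105), Nr3c1 (adjusted p = 0.0748) and Ccl7 (adjusted p = 0.0518) were lost, beside those of Trp53inp1, Tap1, Lig4 and Clk1. The sign of Mdm2 turned (0.04).

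The slides gave the same direction for all 364 calls, which groups that do not overlap largely fix. Differences were larger on slide 1 for 276 of them, with a median signed size of 0.549 against 0.415 on slide 2. On slide 1 alone 414 passed the test (1.56%), and on slide 2 alone 1 (0.00378%). The test of the difference between slides called 0 of 26477 by limma (1273 at an unadjusted p under 0.05, of which 38 were among the 364, smallest adjusted p 0.314). With 1 array left out it called 0 to 23.

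**Figure D4:**
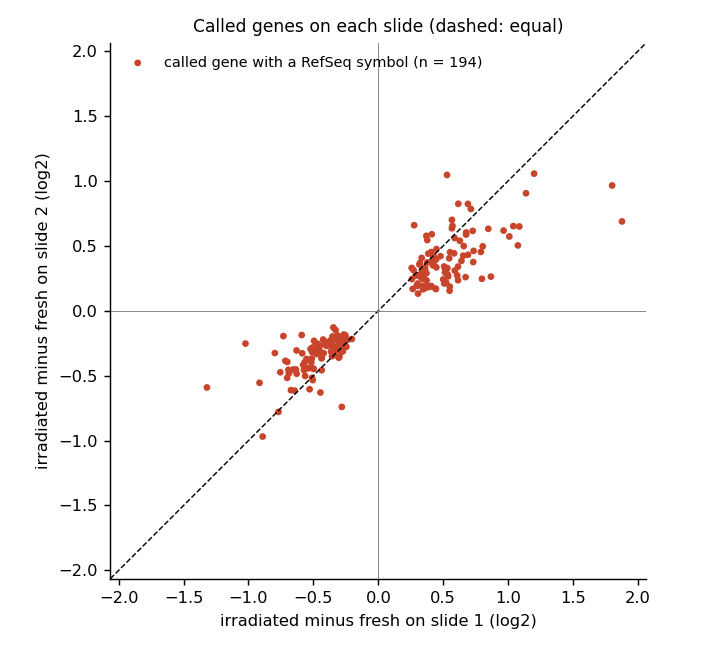
Each point is 1 of the 194 called genes with a RefSeq symbol, placed by its log2 difference between irradiated and fresh animals on slide 1 (horizontal) and on slide 2 (vertical), with a dashed line of equality. All points lie in the 2 quadrants of like sign, and most lie nearer to 0 on slide 2 than on slide 1.

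Array features without a RefSeq symbol held 170 of the 364 calls (1.62% of 10484, against 1.21% of genes with a symbol) and 48 of the 52 calls of at least 2-fold. They include cDNA clones, Ensembl transcripts and features named by a chromosome interval, most of them dim, with a median fresh level of -2.41 against 0.74 for genes with a symbol. ENSMUST00000152371 was at -3.41, -4.43, -3.15 and -2.14 in fresh and at -0.77, -0.72, -0.73 and -0.69 in irradiated animals (5.87-fold, adjusted p = 0.0105). The irradiated animals were close together and the fresh ones spread widely. XR_881048 was not well above background in any fresh animal and was at least 1.32-fold higher (adjusted p = 0.0228). The cDNA AK078743 fell by 1.32 on the log2 scale (adjusted p = 0.0458).

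The 126 features without a symbol that were called higher averaged -0.51, -0.59, -0.42 and -0.25 in fresh 1 to 4 and 0.38, 0.44, 0.49 and 0.47 in irradiated 1 to 4. These averages are relative to the mean of the 8 fresh and irradiated arrays. The untreated freeze-dried animals, all on slide 1, averaged -0.30, -0.01, 0.16 and 0.24, and the heated animals -0.31 to -0.23. The irradiated values were those that chose these features, and the means are a description.

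Radiation can delete or duplicate stretches of chromosome, and such a change in every cell would shift neighbouring genes together, by -1 on the log2 scale for a lost copy and by 0.585 for a gained one. Over 15427 autosomal genes, the median of each autosome in each irradiated animal lay between -0.028 and 0.0473 relative to the other arrays. Medians over 50 neighbouring genes lay between -0.112 and 0.114 in irradiated animals and between -0.358 and 0.136 in fresh animals. The lowest fresh value, in fresh 1, spanned the genes from Nkapl to Cmah on chromosome 13, which include a histone cluster. Changes over fewer genes, or in some cells only, are not covered by this measure.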

How the data were processed

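RNA of 16 neonatal brains, 4 per group by title, was labelled with Cy3 for one-colour arrays. The authors extracted the scans with Agilent Feature Extraction (version 11.0.1.1), as the submitters' processing notes state. Per the file headers, the scanner files give intensity per spot (processed, median and background signals) with marks of 0 or 1 for spot quality, an "other" unit, and no scaling across arrays. The value table that the authors deposited gives log2 signals for 31313 probes without stating its scaling or centring, so it served as an alternative. The median of its columns was 9.337, 9.343, 9.336 and 9.339 in the fresh animals and 9.34, 9.344, 9.341 and 9.348 in the irradiated animals, and 9.335 to 9.344 in the other 8. The headers name build mm9, while RefSeq names and promoters are on GRCm38.p6.

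Of 62976 spots per array, 3671 controls and the outlier spots were left out. Spots of a probe were averaged, and 50 probe values were missing. The log2 processed signal was scaled by each array's 75th percentile. A probe (34261 in all) entered when every array of some group had it well above background, and the brightest one stood for each gene (15993 with a symbol, 10484 without). All 16 arrays were fitted with 4 group means in limma 3.58.1 (R 4.3.3, package data.table, version 1.17.8; lmFit and eBayes, 12 residual degrees of freedom, two-sided moderated tests), adjusted by Benjamini-Hochberg over all genes and features. A gene was called at an adjusted p under 0.05. Differences are irradiated minus fresh on the log2 scale. Where a probe was not well above background in any animal of a group, the fold is a lower bound against the dimmest signal that was. The number of arrays limits the precision. The procedure was tested on simulated data.

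The alternatives were slide, replicate number or Y-linked signal in the model, other arrays, background correction, scaling, filters, probe averaging, weights, the value table, and each array left out. Normexp used the median spot signal in place of the planned mean. Genes with values are the 12 largest increases and decreases among called genes whose groups do not overlap, the leading members by p of each list, and a set of damage, imprinting, sex and proliferation markers. The members, lists and tests were chosen with earlier results of these data known. Promoter windows matched 12629 of the 15993 genes, and each motif was searched on both strands.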

Additional observations from a re-analysis of the deposited data

Results flagged for a closer look

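Among 87 genes and 46 list levels, each in the 4 fresh and the 4 irradiated animals (266 groups), 14 held an animal whose gap to the others took most of the group's range. Chance alone would give about 1 in 20 such groups, and 14 of 266 is near that share. The flags below are therefore a description. Of the 14, 7 fell on fresh 2, 2 each on fresh 1, irradiated 3 and irradiated 4, and 1 on irradiated 2.

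Fresh 2 had Hox genes at -6.71 (others -1.58 to -1.17) and monoaminergic and cholinergic genes at -1.01 (others -0.57 to -0.52), both of hindbrain or brainstem. It also had mitosis genes at 0.68 (others 0.38 to 0.39), Aurka at 1.90 (others 1.51 to 1.54), oligodendrocyte genes at 0.29 (others 0.44 to 0.45), cerebellar genes at 0.24 (others 0.39 to 0.42) and Gbp2 at -2.70 (others -2.53 to -2.50). Fresh 1 had skeletal muscle genes at 0.82 (others -2.20 to -1.96) and Orc1 at -3.19 (others -3.66 to -3.59).

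Irradiated 3 had Wfikkn1 at -2.54 (others -2.99 to -2.95) and cerebellar genes at 0.25 (others 0.39 to 0.42). Irradiated 4 had Gfap at -0.68 (others 0.01 to 0.05) and Y-linked genes at -7.48 (others -1.10 to -1.03). Irradiated 2 had skeletal muscle genes at -2.22 (others -2.08 to -2.05).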

How the results depend on the processing

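The count of 364 moved beyond 1.5 times with slide as a block (651), the 8 arrays alone (69), the 8 arrays with slide as a block (128), slide 2 alone (1), normexp (208), no filter on dim probes (71), the deposited value table (939), the Y-linked covariate (152) and array weights (599). Leaving out 1 array gave 54 to 539. Alternatives added after the data were seen gave 0 without the arrays of low Hox signal and 2 without those of low Hox or high muscle signal. The replicate block gave 308 calls, of which 240 were among the 364. Same-numbered fresh and irradiated animals correlated at -0.31, -0.19, 0.238 and -0.0115 in their deviations from the group means. Such pairs share a slide as well as a number. The labels state no matching, and these correlations cannot tell whether there was any. The slide difference called 0 genes, 3 with no filter on dim probes, and 0 to 23 with 1 array left out, where a lone animal is assumed to vary like the rest. Among the named genes the sign turned for Cdkn1a with normexp (-0.057), Mdm2 with the mean of the kept probes (0.036), H19 with the Y-linked covariate (0.011), array weights (0.019), normexp (0.002) and arrays left out (-0.074 to 0.04), and Mki67 with array weights (0.01), normexp (0.032), slide 2 alone (0.012) and 1 array left out (-0.048 to 0.035), 0.035 without the arrays of low Hox signal and 0.064 without those of low Hox or high muscle signal. Of 1192 list medians under alternatives 53 moved by more than the spread between animals. The cause was not tested. Signal over background limits 13 of the 364 calls, whose fold is a lower bound.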

Other observations

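Fresh animals held more genes that stood alone than irradiated animals did. Counting genes and features more than 1 log2 unit beyond all 15 other arrays, fresh 1 to 4 had 27, 53, 37 and 28 and irradiated 1 to 4 had 6, 12, 25 and 7. Freeze-dried 1 to 4 had 8, 129, 5 and 5, and heated 1 to 4 had 21, 35, 18 and 44. An exact permutation test over the 8 fresh and irradiated animals gave a two-sided p of 0.0286, the smallest that its 70 assignments allow. For genes with a symbol the counts were 23, 8, 20 and 12 against 1, 6, 14 and 2, with an exact p of 0.114. In fresh 1 the genes standing alone were led by Myl1, Mylpf and Tnnc2, contractile proteins of skeletal muscle. The measure was chosen after the data were seen.

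The mean of the freeze-dried animals lay between the fresh mean and the irradiated mean for 355 of the 364 calls. Single freeze-dried animals were not counted, and no share over everything tested was set beside this count. The freeze-dried animals were all on slide 1 and all had high Y-linked signal, unlike the fresh and the irradiated animals. The calls were chosen for fresh and irradiated values that lie apart, which leaves a wide gap for the freeze-dried mean. The count is therefore a description.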
